A study of Mus musculus with 12 samples.

Results

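The 9 genes Mbp, Mobp, Mal, Mag, Mog, Opalin, Cnp, Ermn and Plekhb1 belong to the myelin programme of oligodendrocytes and were followed here across all libraries of a mouse RNA sequencing series. They were taken by gene name from the deposited table of FPKM values (fragments scaled to gene length and library size), where they make up 9 of 55862 entries. The series holds 12 libraries from the brain of C57BL/6 mice, in 4 groups of 3, and no mutant allele is named for any of them. A-iSC are cells made from astrocytes in spheres, labelled with 5 days of incubation. P56-NSC and P0-NSC are labelled as positive controls and described as neural progenitor cells from the brain, and AST are astrocytes at day 0, labelled as the negative control. P56 and P0 in the group names are read here as postnatal ages of the mice in days, adult and newborn. The labels do not say how the P56-NSC and P0-NSC cells were isolated, whether they were cultured, or whether animals were pooled. They do not place the libraries of a group in separate cultures or animals either, so p-values measure how far these libraries spread, and that spread may be technical.

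Myelin is the multilayered membrane that oligodendrocytes wrap around axons in the central nervous system. Its compact layers are held together by small basic and membrane-spanning proteins, while its inner and outer faces and its cytoplasm-filled loops carry cell surface glycoproteins, enzymes and cytoskeletal proteins. Oligodendrocyte precursors switch these genes on as they leave the cell cycle, under transcription factors such as Olig2, Sox10 and Myrf. Myelin transcripts are among the most abundant messenger RNAs of adult white matter.

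The DNA just ahead of 5 of these genes is shown because their stretches hold a motif match and their levels outside P56-NSC are unlike: Mobp and Opalin were at 0 in AST, Cnp was 1 of the 2 most abundant members in the other groups, Mag stayed under 1 FPKM, and Mog was higher in P0-NSC than in A-iSC. The sequences come from RefSeq promoter windows of 300 bases (250 before and 50 after the start), build GRCm38.p6, of which 8 of the 9 members had a match, all but Mbp, with 11 windows in all. Printed is the stretch of a window that ends at the base before the annotated gene, read 5′ to 3′ on the gene's strand, with motif matches in capitals. Capitals mark ACAAAG or its reverse complement CTTTGT, a core that SOX factors bind, and CTGGCAC or CTGGTAC (or their reverse complements), cores known for Myrf. None of the motifs searched contains another. The stretches lie at chr9:120149492-120149706 (plus strand, Mobp), chr11:100574689-100574903 (plus strand, Cnp), chr7:30914874-30915113 (minus strand, Mag), chr19:41077114-41077363 (minus strand, Opalin) and chr17:37023399-37023648 (minus strand, Mog).
Mobp: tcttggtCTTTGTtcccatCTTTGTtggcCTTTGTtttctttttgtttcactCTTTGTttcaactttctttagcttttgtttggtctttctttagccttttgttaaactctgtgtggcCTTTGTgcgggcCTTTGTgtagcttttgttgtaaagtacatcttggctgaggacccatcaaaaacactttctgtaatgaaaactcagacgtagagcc
Cnp: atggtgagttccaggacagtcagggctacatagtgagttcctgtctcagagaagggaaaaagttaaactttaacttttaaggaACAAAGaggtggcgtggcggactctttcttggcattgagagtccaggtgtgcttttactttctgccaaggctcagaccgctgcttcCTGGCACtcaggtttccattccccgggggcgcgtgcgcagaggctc
Mag: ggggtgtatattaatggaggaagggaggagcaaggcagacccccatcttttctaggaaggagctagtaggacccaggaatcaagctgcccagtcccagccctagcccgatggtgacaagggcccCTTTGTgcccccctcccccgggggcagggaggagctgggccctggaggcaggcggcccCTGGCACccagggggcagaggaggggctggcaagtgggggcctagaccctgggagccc
Opalin: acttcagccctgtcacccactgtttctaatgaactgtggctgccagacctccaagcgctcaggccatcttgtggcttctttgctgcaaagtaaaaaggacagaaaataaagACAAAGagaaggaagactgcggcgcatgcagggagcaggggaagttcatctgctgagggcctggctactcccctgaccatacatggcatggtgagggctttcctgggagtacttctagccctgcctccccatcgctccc
Mog: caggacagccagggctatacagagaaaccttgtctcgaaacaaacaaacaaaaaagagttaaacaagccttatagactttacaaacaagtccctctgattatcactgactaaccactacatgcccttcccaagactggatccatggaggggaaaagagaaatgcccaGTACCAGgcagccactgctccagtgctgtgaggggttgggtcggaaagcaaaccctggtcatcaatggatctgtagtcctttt

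The Mobp stretch holds 6 copies of CTTTGT, and 1 of 32851 windows in the RefSeq table (0.00304%) holds as many copies in either direction, the Mobp window itself. ACAAAG in either direction was found in 6 of the 11 member windows, those of Cnp, Mag, Mobp, Opalin and Plekhb1, against 18.7% of all windows. CTGGCAC was found in 4 windows, of Cnp, Mag and Opalin, against 5.01% of all windows. Overlapping windows of Mag hold the same match of each of these motifs, so its sites are counted more than once. By gene, where a match in any window counts, they are 5 of 8 for ACAAAG and 3 of 8 for CTGGCAC. The shares of all windows are not by gene, and no share by gene was counted. The single match of CTGGTAC was in Mog, where 2.24% of all windows hold it. The related SOX core ACAATG was found once, in Ermn (12.6% of all windows), and TATAAA in 0 member windows (13.6% of all windows). The CTGGCAC of Opalin, 1 of the 2 ACAAAG matches of its window and the ACAAAG of Plekhb1 lie outside the stretch that ends at the annotated gene. These are matches of letters, not binding sites.

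Reads per library, recovered from the FPKM values, numbered 17077780 to 24452419, which makes 0.0343 to 0.0623 FPKM the value of a single read per 1 kb of gene. Intervals and floors below cover counting error only. The libraries labelled P56-NSC went against that label: their summed level of 10 neural stem and progenitor markers was 192 to 229 FPKM, against 715 to 871 FPKM in AST, and Nes, the progenitor filament protein, averaged 3.76 ± 0.246 FPKM, against 196 ± 13.4 FPKM in AST. Of the 10 markers, 7 were called lower in P56-NSC than in AST and 3 higher. All 10 averaged at least 1 FPKM in P56-NSC, and 8 did in AST. Summed neuron markers in P56-NSC reached 510 to 586 FPKM (51.3 to 57.8 FPKM in AST). Mitochondrial reads made up 16.5% to 17.6% in P56-NSC, against 2.94% to 7.03% in the other libraries. The group is called P56-NSC below as its label only. Each comparison without it is also given from a fit that leaves it out, for the 5 members that this fit could test. Mobp, Mag, Ermn and Opalin could not be tested there. That fit also called 3 to 19 genes of each other list below, within 1.5 times the counts given. Red blood cell markers summed to 360.0 to 565 FPKM in P56-NSC and 163 to 338 FPKM in P0-NSC, against 0.0310 to 0.548 FPKM in A-iSC and 0 to 0.143 FPKM in AST. AST carried all 8 astrocyte markers above 1 FPKM in the mean, yet their sum was the lowest of the 4 groups, at 143 to 161 FPKM, beside 1211 to 2466 FPKM in A-iSC, 2834 to 3072 in P56-NSC and 238 to 303 in P0-NSC. AST also had fibroblast and mural cell markers summing to 1881 to 2267 FPKM (31.8 to 65.5 FPKM in A-iSC). AST 2 and A-iSC 3 stood apart from the others of their groups in deviations that followed gene length (Spearman -0.450 and 0.328, across genes). Leaving both out changed 1 member call, that of Mag in P0-NSC against AST, which was then called (adjusted p = 0.0454).

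The 9 genes together made up 0.0476% to 0.0660% of reads in A-iSC, 5.17% to 5.96% in P56-NSC, 0.00883% to 0.0123% in P0-NSC and 0.0147% to 0.0152% in AST. On the FPKM scale their summed level was 131 ± 21.4 in A-iSC, 10839 ± 735 in P56-NSC, 22.9 ± 4.02 in P0-NSC and 41.8 ± 1.72 in AST (SD, n = 3 each). The sums of the 4 groups did not overlap, so P56-NSC stood highest, then A-iSC, AST and P0-NSC. In bulk RNA, fewer cells of a type and less RNA per cell cannot be told apart.

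**Figure D1:**
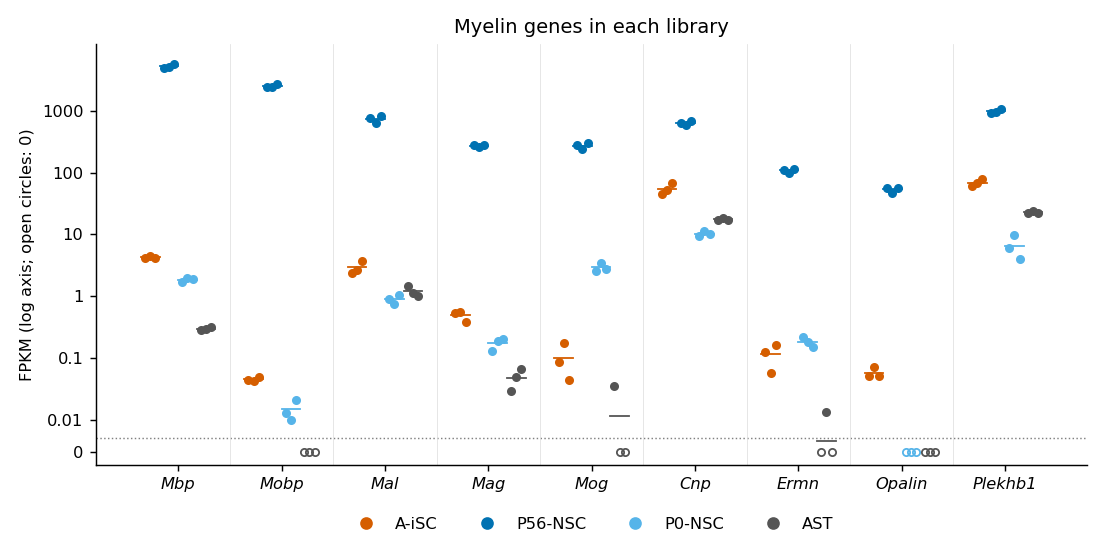
FPKM of each myelin gene (horizontal axis) in each of the 12 libraries on a log axis, with values of 0 as open circles under the dotted line and group means as short bars. P56-NSC lies above every other library for all 9 genes. Over A-iSC the gap is widest for Mobp (55495-fold in the mean) and narrowest for Cnp (11.5-fold).

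Among the proteins of compact myelin, Mbp, the basic protein that zips the cytoplasmic faces of the membrane together (ENSMUSG00000041607, chr18:82475146-82585637, plus strand, GRCm38), separated all 4 groups. Its level was 4.08, 4.45 and 4.16 FPKM in the A-iSC libraries and 4994, 5159 and 5659.7 FPKM in P56-NSC. P0-NSC had 1.698, 1.95 and 1.92 FPKM of Mbp, and AST had 0.282, 0.291 and 0.312 FPKM. No group overlapped another, and libraries of a group lay close together, with coefficients of variation of 4.61% in A-iSC and 6.58% in P56-NSC. Each step in the order P56-NSC, A-iSC, P0-NSC, AST passed the limma test (adjusted p = 1.38e-15, 9.32e-07 and 6.53e-08). The Mbp locus has 16 GENCODE transcripts, of which 4 start in its first 50 kb, where the long Golli forms begin, and the starts lie up to 88116 bases apart. A level per gene adds these forms together.

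Mobp, a small basic protein of compact myelin (ENSMUSG00000032517, chr9:120149707-120181484, plus strand), was the second most abundant member in P56-NSC and nearly absent elsewhere. It was at 0.0435, 0.0430 and 0.0490 FPKM in A-iSC (6, 7 and 9 reads) and at 2419.6, 2394 and 2704 FPKM in P56-NSC. P0-NSC had 0.0128, 0.01003 and 0.0212 FPKM (2, 2 and 4 reads), and AST had 0 reads in each library, which allows up to 0.0216 to 0.0261 FPKM (3 reads). The A-iSC libraries lay above P0-NSC and AST, without overlap. On the log2(FPKM + 1) scale these small levels did not pass the test against each other (A-iSC against P0-NSC adjusted p = 0.627, P0-NSC against AST adjusted p = 0.809).

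Mal, a membrane-spanning proteolipid of lipid-rich myelin domains that epithelia also make (ENSMUSG00000027375, chr2:127633226-127656695, minus strand), was present in every library. The A-iSC libraries had 2.41, 2.62 and 3.71 FPKM of Mal, and P56-NSC had 763, 632 and 829 FPKM. P0-NSC had 0.913, 0.754 and 1.05 FPKM, and AST had 1.44, 1.12 and 1.01 FPKM. A-iSC lay above both P0-NSC and AST in every library, while P0-NSC and AST overlapped and did not differ by the test (log2 change -0.20 ± 0.14, adjusted p = 0.220).

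The surface glycoproteins behaved less alike. Mag, the sialic acid-binding glycoprotein of the membrane that faces the axon (ENSMUSG00000036634, chr7:30899176-30914873, minus strand), was at 0.536, 0.558 and 0.385 FPKM in A-iSC and at 277, 257 and 279 FPKM in P56-NSC. P0-NSC had 0.129, 0.186 and 0.205 FPKM of Mag, and AST had 0.0293, 0.0484 and 0.0661 FPKM (2, 4 and 5 reads). The groups did not overlap, and the step between P0-NSC and AST did not pass the test (adjusted p = 0.0844).

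Mog, the immunoglobulin-type glycoprotein of the outermost myelin layer (ENSMUSG00000076439, chr17:37010743-37023398, minus strand), had another order, with P0-NSC above A-iSC. Its level was 0.0873, 0.173 and 0.0438 FPKM in A-iSC (3, 7 and 2 reads) and 274, 238 and 301 FPKM in P56-NSC. P0-NSC had 2.59, 3.45 and 2.75 FPKM of Mog (101, 171 and 129 reads). AST had a single read, in AST 1 (0.0350 FPKM), and 0 in the others. Every P0-NSC library was far above every A-iSC and AST library, and A-iSC and AST did not differ by the test (log2 change 0.12 ± 0.11, adjusted p = 0.365).

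Opalin, a small transmembrane glycoprotein found in oligodendrocytes (ENSMUSG00000050121, chr19:41061710-41077113, minus strand), was the least abundant member in P56-NSC. It was at 0.0505, 0.0714 and 0.0506 FPKM in A-iSC (3, 5 and 4 reads) and at 55.3, 47.0 and 57.0 FPKM in P56-NSC. P0-NSC and AST had 0 reads in all 6 libraries, which allows up to 0.0350 to 0.0445 FPKM in P0-NSC and 0.0502 to 0.0607 FPKM in AST. A-iSC was thus the only group outside P56-NSC in which Opalin reads were found, at a level that is at or close to those limits.

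**Figure D2:**
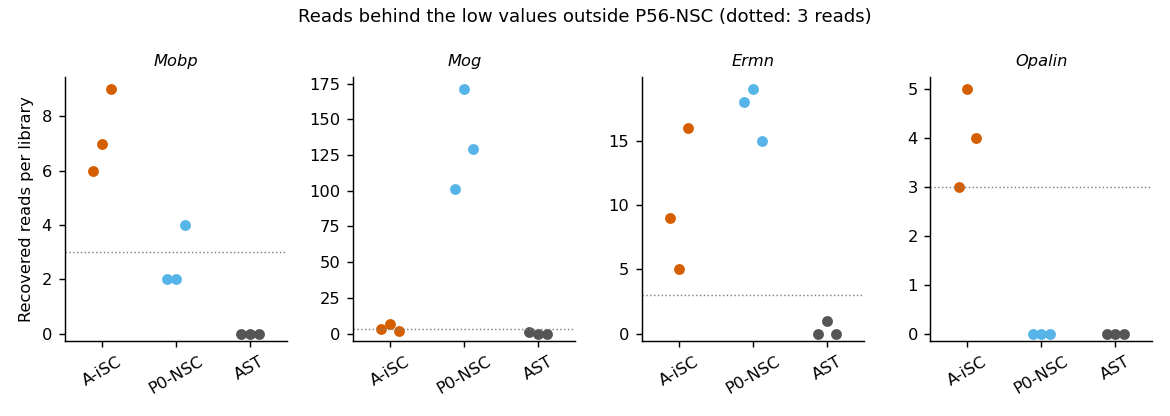
Whole reads per library (vertical axes, a scale each) for the 4 members with the fewest reads outside P56-NSC, in A-iSC, P0-NSC and AST, with a dotted line at 3 reads. Mog reaches 101 to 171 reads in P0-NSC, Ermn 15 to 19, while Mobp stays at 9 reads or fewer and Opalin has reads in A-iSC only, of these 3 groups.

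The enzyme Cnp and the membrane protein Plekhb1 had the highest FPKM of the 9 members in A-iSC and AST, and Ermn, of the cytoskeleton, was low there. Cnp, the cyclic nucleotide phosphodiesterase of the uncompacted loops, which other cells make at lower levels (ENSMUSG00000006782, chr11:100574904-100591729, plus strand), had 45.3, 51.4 and 67.5 FPKM in A-iSC and 636, 580 and 670.0 FPKM in P56-NSC. P0-NSC had 9.42, 11.3 and 10.2 FPKM of Cnp, and AST had 16.9, 18.6 and 17.1 FPKM. All 4 groups were separate, in the order P56-NSC, A-iSC, AST, P0-NSC, and each step passed the test (adjusted p = 5.87e-10, 1.07e-06 and 0.000387). The exons of Cnp share 154 bases (4.23% of their length) with Dnajc7 on the other strand, and the library kit does not mark strand. Dnajc7 averaged 25.2 to 32.6 FPKM in the 4 groups.

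Plekhb1, a pleckstrin homology domain protein of membranes, known from photoreceptors as well as brain (ENSMUSG00000030701, chr7:100642892-100662414, minus strand), was the most abundant member in both A-iSC and AST. Its level was 59.9, 66.9 and 78.4 FPKM in A-iSC and 931, 962 and 1070.4 FPKM in P56-NSC. P0-NSC had 6.04, 9.76 and 3.95 FPKM, and AST had 21.8, 23.7 and 22.5 FPKM. The order was that of Cnp, with no overlap between groups and each step past the test (adjusted p = 1.81e-08, 7.43e-05 and 1.68e-05). The P0-NSC libraries varied more than the others (coefficient of variation 44.7%, against 4.14% in AST). Among the 15747 genes tested, Plekhb1 stood at the 95.4 to 96.8 percentile of levels in A-iSC and Cnp at the 93.6 to 96.2 percentile, while Mbp stood at the 46.9 to 49.5 percentile.

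Ermn, an actin-binding protein of late oligodendrocytes (ENSMUSG00000026830, chr2:58045113-58052864, minus strand), was low in all groups but P56-NSC. It had 0.123, 0.0579 and 0.164 FPKM in A-iSC (9, 5 and 16 reads) and 111, 99.2 and 116 FPKM in P56-NSC. P0-NSC had 0.216, 0.180 and 0.150 FPKM (18, 19 and 15 reads), and AST had 1 read in all, in AST 2 (0.0136 FPKM). A-iSC and P0-NSC overlapped and did not differ by the test (adjusted p = 0.385), and both lay above AST. Ermn shares 237 exon bases (6.52%) with Galnt5 on the other strand, which had 0 reads in A-iSC and AST and averaged 0.0104 FPKM in P0-NSC.

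The make-up of the myelin signal set P56-NSC apart from the other groups. In P56-NSC, Mbp gave 48.6% and Mobp 23.1% of the summed FPKM of the 9 genes, and Cnp and Plekhb1 gave 5.80% and 9.11%. In A-iSC, Plekhb1 gave 52.2% and Cnp 41.8%, which left 3.23% for Mbp and 0.0345% for Mobp. P0-NSC had 44.9% from Cnp, 28.7% from Plekhb1 and 12.8% from Mog, and AST had 54.3% from Plekhb1 and 42.0% from Cnp. A-iSC and AST thus shared their main contributors, and the share of Mbp was 3.23% in A-iSC and 0.706% in AST. Within P56-NSC, P56-NSC 3 was highest for 9 of 9 genes and P56-NSC 2 lowest for 7. How many of all genes tested have this order was not counted. Deviations of P56-NSC 3 and P56-NSC 2 across all genes tested followed gene length in opposite directions (Spearman -0.175 and 0.145).

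**Figure D3:**
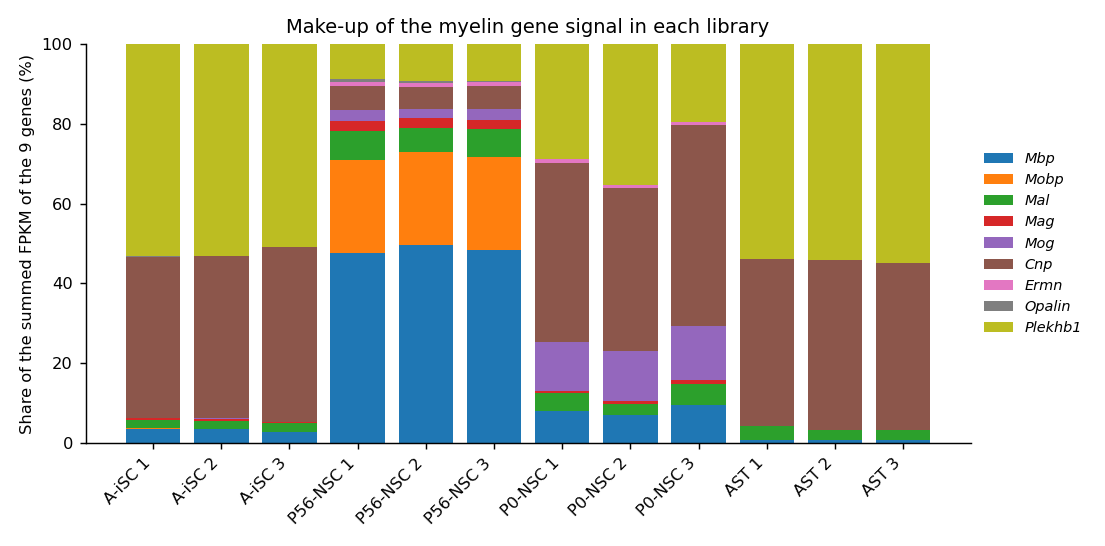
Share of each gene in the summed FPKM of the 9 myelin genes, in percent, as a stacked bar for each library. Mbp and Mobp fill most of the P56-NSC bars, Plekhb1 and Cnp nearly all of the A-iSC and AST bars, and Mog is visible in the P0-NSC bars (12.8% in the mean).

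A-iSC against AST compared the cells made in spheres, labelled with 5 days of incubation, with the astrocytes at day 0. A change in the mix of cells and a change within cells cannot be told apart here. Mbp rose 14.3-fold, Mag 10.3-fold, Cnp 3.12-fold, Plekhb1 3.02-fold and Mal 2.45-fold in A-iSC. The log2(FPKM + 1) changes understate the folds of Mbp, Mag and Mal, which stayed below 5 FPKM: 2.01 ± 0.08 for Mbp (limma adjusted p = 2.0e-09), 0.51 ± 0.08 for Mag (adjusted p = 0.000173), 1.57 ± 0.13 for Cnp (adjusted p = 1.07e-06), 1.54 ± 0.22 for Plekhb1 (adjusted p = 7.43e-05) and 0.83 ± 0.14 for Mal (adjusted p = 0.000317). Thus 5 of 9 members were called higher and 0 lower, where 58.9% of all genes tested were called, 28.1% higher and 30.8% lower. With libraries scaled to equal total reads, 60.9% of all calls were higher, against 47.7% as deposited, and the same 5 members were called. The other 4, Mobp, Mog, Ermn and Opalin, had 22, 12, 30 and 12 reads in A-iSC summed over libraries, against 0, 1, 1 and 0 reads in AST. Their A-iSC and AST libraries did not overlap, and how many of all genes tested do the same was not counted. All 9 were called higher with a pseudocount of 0.1 in place of 1, and also with voom (limma) on the recovered reads. Of all 15747 genes tested, 4671 were called higher with that pseudocount and 5758 with voom, against 4429 in the main fit.

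For Mobp and Opalin, with 0 reads in AST, the fold has no upper limit that these reads can set. Mobp was at least 1.90-fold higher in A-iSC than the level of 3 reads per AST library. Ermn had 23.6 times its AST level, with an exact counting interval of 3.92 to 962, and Mog had 9.43 times its AST level, with an interval of 1.40 to 403 (95%). The median log2 change of the 9 members was 0.51, beside 0 for all genes tested, and their range was 0.06 to 2.01. Of the 5 called members, 4 pass the filter on low values without P56-NSC, and the fit without that group called those 4. Mag could not be tested in that fit, and Mog was tested there and not called. Markers of other cells moved in the same comparison: 7 of 8 astrocyte markers rose (1211 to 2466 FPKM summed in A-iSC, 143 to 161 in AST) and 8 of 8 microglia markers rose (2789 to 3688 FPKM in A-iSC, 228 to 284 in AST), with none of either list at 0. Of 6 fibroblast and mural cell markers 4 fell, at the sums given above. The part of these markers in the results was not tested.

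**Figure D4:**
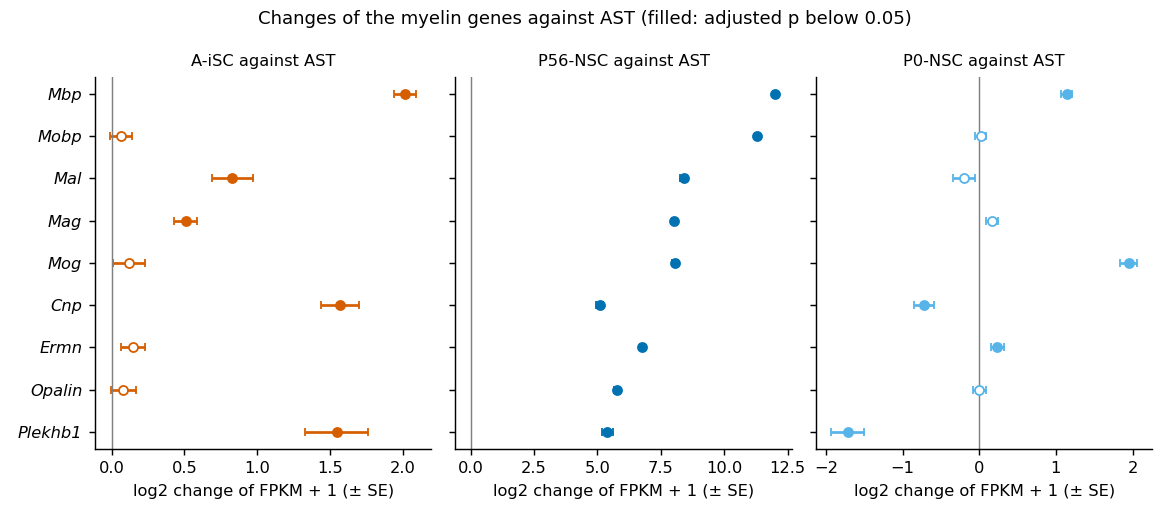
Log2 change of FPKM + 1 with its standard error for each gene in A-iSC, P56-NSC and P0-NSC, each against AST, with filled points for adjusted p below 0.05 and a scale of its own for each panel. Changes lie between 0.06 and 2.01 in A-iSC, between 5.08 and 11.99 in P56-NSC, and on both sides of 0 in P0-NSC.

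P56-NSC against AST had the highest median change of the 6 comparisons for these genes. Mbp was 17880.1-fold higher in P56-NSC, Mag 5654-fold, Mal 624-fold, Plekhb1 43.6-fold and Cnp 35.8-fold. Mobp was at least 105423.5-fold and Opalin at least 961-fold higher than the level of 3 reads in each AST library. On the log2(FPKM + 1) scale the changes ran from 5.08 ± 0.13 (Cnp, adjusted p = 1.6e-11) to 11.99 ± 0.08 (Mbp, adjusted p = 1.8e-16), with a median of 8.02, beside a median of 0.00 for all genes. All 9 members were called higher, where 74.1% of all genes were called, 37.1% higher and 37.0% lower. Under total read scaling 38.7% of all calls were higher, against 50.1% as deposited. Mobp, Mag, Ermn and Opalin entered the test through their P56-NSC values alone, since no other group reached 1 FPKM, so their calls against P56-NSC had to follow. In the same comparison 7 of 9 neuron markers and 5 of 5 red blood cell markers rose, with 1 neuron marker lower, and 8 of 8 astrocyte and 8 of 8 microglia markers rose (microglia 827 to 911 FPKM summed in P56-NSC, 228 to 284 in AST). Of 10 progenitor markers 3 rose and 7 fell. In AST 3 of the 5 red blood cell markers were at 0 in every library, and the part of these markers in the result was not tested.

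P0-NSC against AST was the only comparison with AST in which members went both ways. Mbp was 6.29-fold higher in P0-NSC (log2 change 1.14 ± 0.08, adjusted p = 6.5e-08). Mog rose by 1.95 ± 0.11 on the log2 scale (adjusted p = 1.1e-08), 280.4 times the AST level with an exact counting interval of 50.04 to 11103, since AST had a single read. Ermn rose by 0.23 ± 0.08 (adjusted p = 0.0227), a call that rests on single libraries: without P0-NSC 1, AST 1 or AST 3 the adjusted p was 0.0707, 0.0572 or 0.0579. Plekhb1 was 3.44-fold lower in P0-NSC (log2 change -1.71 ± 0.22, adjusted p = 1.7e-05) and Cnp 1.71-fold lower (log2 change -0.72 ± 0.13, adjusted p = 0.000387). So 3 of 9 members were higher and 2 lower, where 74.2% of all genes were called, 35.9% higher and 38.3% lower. Under total read scaling 58.7% of all calls were higher, against 48.4% as deposited. The median log2 change of the members was 0.02, beside -0.04 for all genes. The fit without P56-NSC called 4 of the 5 members it could test: Mbp, Mog, Cnp and Plekhb1. In these libraries 7 of 9 neuron markers rose and 1 fell (59.7 to 77.4 FPKM summed in P0-NSC, 51.3 to 57.8 in AST). Endothelial markers rose in 6 of 6 (72.8 to 74.8 FPKM in P0-NSC, 4.46 to 4.50 in AST), with 1 endothelial marker at 0 in AST. Of 8 astrocyte markers 4 rose and 4 fell, and of 8 microglia markers 2 rose and 4 fell. Of 10 progenitor markers 6 rose and 4 fell. All 5 red blood cell markers rose (163 to 338 FPKM summed in P0-NSC, 0 to 0.143 in AST). Fibroblast and mural cell markers summed to 92.1 to 99.7 FPKM in P0-NSC and 1881 to 2267 in AST, with 3 of 6 higher and 2 lower. The part of these markers was not tested.

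A-iSC against P56-NSC asked how close the induced cells came to the adult-labelled control. All 9 members were lower in A-iSC, where 62.9% of all genes were called, 31.5% higher and 31.3% lower. Here too the calls of Mobp, Mag, Ermn and Opalin had to follow, since they passed the filter through P56-NSC alone. Under total read scaling 73.4% of all calls were higher, against 50.1% as deposited. The distance was smallest for Cnp, 11.5-fold lower in A-iSC (log2 change -3.51 ± 0.13, adjusted p = 5.9e-10), and Plekhb1, 14.4-fold lower. It was 254-fold for Mal, 550.1-fold for Mag, 923-fold for Opalin, 946-fold for Ermn, 1246-fold for Mbp and 2679-fold for Mog. Mobp was the most distant, 55495-fold lower in A-iSC (log2 change -11.23 ± 0.07, adjusted p = 3.9e-16). The members thus spread over more than 3 orders of magnitude in how far A-iSC lay under P56-NSC. Markers of other cells moved with them: all 9 neuron markers (10.4 to 15.4 FPKM summed in A-iSC, 510 to 586 in P56-NSC) and all 5 red blood cell markers were lower in A-iSC. Microglia markers summed to 2789 to 3688 FPKM in A-iSC and 827 to 911 in P56-NSC, with 5 of 8 higher and 2 lower. Progenitor markers summed to 785 to 864 FPKM in A-iSC and 192 to 229 in P56-NSC, with 7 of 10 higher and 1 lower. Their part was not tested.

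A-iSC against P0-NSC set the induced cells beside the other control. Plekhb1 was 10.4-fold higher in A-iSC (log2 change 3.26 ± 0.22, adjusted p = 7.5e-08), Cnp 5.32-fold, Mal 3.22-fold, Mag 2.85-fold and Mbp 2.28-fold. Mog was 28.9-fold lower in A-iSC (log2 change -1.83 ± 0.11, adjusted p = 2.7e-08). In all 5 members were higher and 1 lower, where 67.3% of all genes were called, 32.6% higher and 34.7% lower. Mobp, Ermn and Opalin were not called, and with a pseudocount of 0.1 Mobp (adjusted p = 0.0273) and Opalin (adjusted p = 0.00487) were called higher in A-iSC. The fit without P56-NSC called all 5 members it could test, Mbp, Cnp, Mal and Plekhb1 higher and Mog lower in A-iSC. All 6 endothelial markers and 8 of 9 neuron markers were lower in A-iSC, and 8 of 8 microglia and 7 of 8 astrocyte markers were higher. All 5 red blood cell markers and 5 of 6 fibroblast and mural cell markers were lower in A-iSC, with 1 of the latter higher. Of 10 progenitor markers 4 were higher and 5 lower in A-iSC. The part of these markers was not tested.

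P56-NSC and P0-NSC share their label as positive controls but not their myelin genes. All 9 members were higher in P56-NSC, where 69.2% of all genes were called, 35.3% higher and 33.9% lower. The calls of Mobp, Mag, Ermn and Opalin had to follow, since only their P56-NSC values brought them into the test. Under total read scaling 27.3% of all calls were higher, against 51.0% as deposited, and all 9 members stayed called higher. Cnp was 61.1-fold higher in P56-NSC, Mog 92.7-fold, Plekhb1 150.1-fold, Ermn 598-fold, Mal 820-fold, Mag 1566-fold, Mbp 2844-fold and Mobp 170869-fold. Opalin was at least 1368-fold higher. Mog had the smallest fold of the 3 surface glycoproteins, since P0-NSC had 401 Mog reads, 57 Mag reads and 0 Opalin reads over its 3 libraries. In the same comparison 6 of 9 neuron markers were higher and 1 lower (510 to 586 FPKM summed in P56-NSC, 59.7 to 77.4 in P0-NSC). All 8 astrocyte markers and all 8 microglia markers were higher in P56-NSC (microglia 827 to 911 FPKM, against 128 to 154 in P0-NSC). All 6 endothelial markers (4.24 to 4.71 FPKM in P56-NSC, 72.8 to 74.8 in P0-NSC) and 7 of 10 progenitor markers (192 to 229 FPKM in P56-NSC, 828 to 950.3 in P0-NSC) were lower, and 2 progenitor markers were higher. Their part was not tested. The comparisons above share groups with one another, so their calls are not separate evidence.

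Other genes of the lineage were counted in the same comparisons, where rose, fell, higher and lower stand for called genes. Of 30 other genes of myelin and mature oligodendrocytes, 14 rose and 6 fell in A-iSC against AST (median log2 change 0.06), 29 rose and 1 fell in P56-NSC against AST (median 5.46), and 13 rose and 10 fell in P0-NSC against AST (median 0.04). All 30 were lower in A-iSC than in P56-NSC. Against P0-NSC, 13 were higher and 9 lower in A-iSC (median 0.13), and 29 were higher and 1 lower in P56-NSC (median 4.44). Cldn11, the tight junction protein of myelin, had the order of Mog, at 6.99 ± 0.627 FPKM in A-iSC and 13.3 ± 4.36 in P0-NSC, against 0.146 ± 0.0400 in AST.

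The list also holds genes that other cells use. Trf, the iron carrier transferrin, had 143 ± 15.7 FPKM in A-iSC, against 7.71 ± 0.998 in AST (log2 change 4.05 ± 0.11, adjusted p = 3.9e-10). Cryab, a small heat shock protein, fell to 163 ± 82.7 FPKM in A-iSC, against 821 ± 201 in AST (log2 change -2.46 ± 0.35, adjusted p = 7.9e-05). Anln, which serves in cell division as well as in myelin, fell to 0.863 ± 0.185 FPKM in A-iSC, against 13.4 ± 2.37 in AST (log2 change -2.94 ± 0.14, adjusted p = 8.4e-09). In AST 14 of the 30 genes averaged above 1 FPKM, and 18 did in A-iSC.

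Of 12 transcription factors of the lineage, 4 rose and 0 fell in A-iSC against AST, 10 rose and 0 fell in P56-NSC against AST, and 4 rose and 6 fell in P0-NSC against AST. In A-iSC 0 were higher and 9 lower than in P56-NSC, 7 were higher and 1 lower than in P0-NSC, and P56-NSC had 10 higher and 0 lower than P0-NSC. In A-iSC against AST the count was 7 under total read scaling and 9 with voom, all higher. Sox10, which drives myelin genes, was at 11.2 ± 2.03 FPKM in A-iSC, 72.4 ± 6.43 in P56-NSC and 2.94 ± 0.860 in P0-NSC, against 0.279 ± 0.174 in AST, and rose by 3.25 ± 0.17 in A-iSC against AST (adjusted p = 1.9e-08). Olig1 and Olig2, factors of the precursor stage that some astrocytes keep, were already at 84.5 ± 10.6 and 26.7 ± 0.915 FPKM in AST. Olig2 rose by 0.41 ± 0.13 in A-iSC against AST (adjusted p = 0.0140, and 0.0515 without A-iSC 1). Olig1 did not pass the test (adjusted p = 0.2698), but did under total read scaling (adjusted p = 0.0346). Sox8, a relative of Sox10, was at 18.7 ± 3.07 FPKM in A-iSC and 16.1 ± 1.69 in AST (adjusted p = 0.215, and 0.0199 under total read scaling). The repressor Zfp488 had 0.404 ± 0.0424 FPKM in A-iSC and 0 in all AST libraries (log2 change 0.49 ± 0.10, adjusted p = 0.000891), and Zfp24 rose by 0.51 ± 0.17 (adjusted p = 0.0234, and 0.0678 without AST 2). Without both AST 2 and A-iSC 3 the change of Zfp24 was 0.21 (adjusted p = 0.0522).

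A pair of factors was chosen after its values were seen. Myrf, which switches on myelin genes at the last step, was at 0.233 ± 0.0514 FPKM in A-iSC, 33.9 ± 1.48 in P56-NSC and 0.253 ± 0.0440 in P0-NSC, against 0.237 ± 0.0899 in AST. Its levels in A-iSC and AST overlapped (adjusted p = 0.986), while Sox10 and Mbp differed between the same libraries. Nkx6-2, a homeodomain factor of oligodendrocytes, was at 13.9 ± 2.44 FPKM in A-iSC, 62.4 ± 2.29 in P56-NSC and 0.0247 ± 0.0214 in P0-NSC, against 14.6 ± 3.64 in AST (A-iSC against AST adjusted p = 0.785). Without AST 2 and A-iSC 3 the change of Nkx6-2 was 0.27 and called higher in A-iSC (adjusted p = 0.00583).

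**Figure D5:**
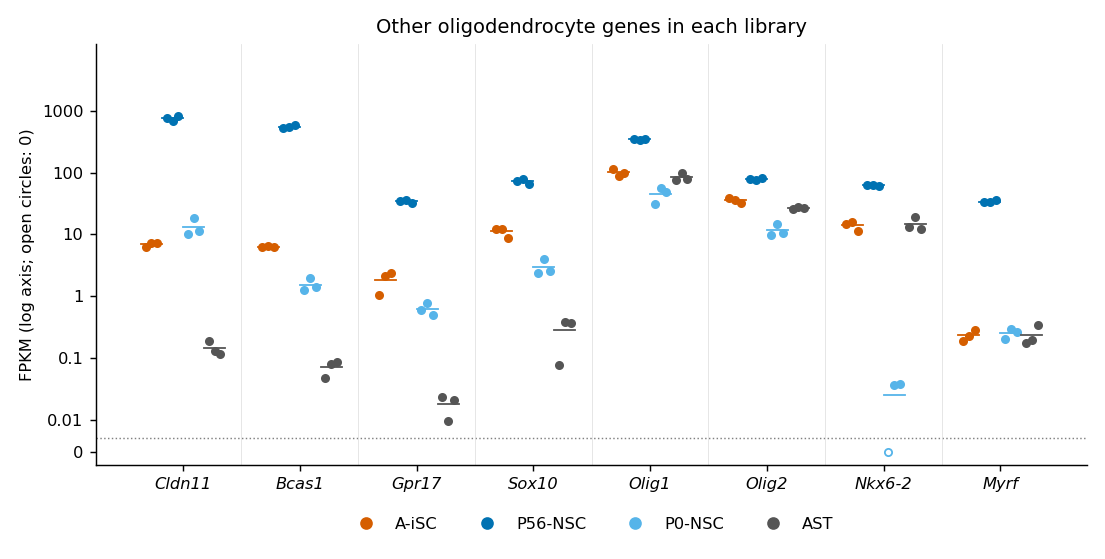
FPKM of 8 other genes of the oligodendrocyte lineage (horizontal axis) in each library on a log axis, with 0 as an open circle and group means as short bars. Bcas1, Gpr17 and Sox10 fall in the order P56-NSC, A-iSC, P0-NSC, AST, while Olig1, Olig2 and Nkx6-2 are higher in AST than in P0-NSC and Myrf is high in P56-NSC alone (33.9 FPKM in the mean).

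Of 15 genes of precursors and premyelinating oligodendrocytes, 8 rose and 3 fell in A-iSC against AST (median log2 change 0.33), 11 rose and 2 fell in P56-NSC, and 7 rose and 4 fell in P0-NSC, each against AST. Here 3 genes were higher and 12 lower in A-iSC than in P56-NSC, 8 higher and 4 lower in A-iSC than in P0-NSC, and 12 higher and 1 lower in P56-NSC than in P0-NSC. Bcas1, which marks oligodendrocytes that begin to myelinate, was at 6.33 ± 0.0419 FPKM in A-iSC, 555 ± 25.5 in P56-NSC and 1.54 ± 0.371 in P0-NSC, against 0.0705 ± 0.0203 in AST (A-iSC against AST log2 change 2.77 ± 0.10, adjusted p = 1.1e-09). C1ql1, a secreted protein of precursors, was at 101 ± 16.5 FPKM in A-iSC, above the 21.2 ± 0.337 FPKM of P56-NSC, and 5.33 ± 1.11 in AST (A-iSC against AST adjusted p = 8.5e-10). Lhfpl3, a membrane protein of precursors, was at 14.4 ± 0.816 FPKM in A-iSC and 0.942 ± 0.0637 in AST (adjusted p = 1.5e-09). Cd9, a tetraspanin of many cells, was at 298 ± 53.7 FPKM in A-iSC and 156 ± 25.7 in AST (adjusted p = 0.000337), and the kinase gene Fyn was at 24.5 ± 3.05 FPKM in A-iSC and 19.2 ± 0.117 in AST (adjusted p = 0.0083).

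Enzymes that make the sterols and fatty acids of myelin were counted in the same way. Of 13 such genes, 2 rose and 8 fell in A-iSC against AST (median log2 change -0.60), 5 rose and 5 fell in P56-NSC against AST, and 0 rose and 9 fell in P0-NSC against AST. In A-iSC 1 was higher and 9 lower than in P56-NSC and 7 were higher and 2 lower than in P0-NSC, and P56-NSC had 10 higher and 1 lower than P0-NSC. Scd2, a desaturase abundant in brain, was at 276 ± 112 FPKM in A-iSC and 172 ± 26.6 in AST (log2 change 0.62 ± 0.23, adjusted p = 0.0374). Without A-iSC 3 the change was 0.30 (adjusted p = 0.106), and without both A-iSC 3 and AST 2 it was 0.17 (adjusted p = 0.228). The call of Scd2 also ended without P56-NSC 1, AST 1 or AST 2 (adjusted p = 0.0508, 0.0553 and 0.124), with no filter (0.0921), in a fit on the 2 groups alone (0.127) and in the fit without P56-NSC (adjusted p = 0.0600). Scd2 reached 1179.6 ± 96.7 FPKM in P56-NSC. Its relative Scd1 was at 31.7 ± 9.17 FPKM in A-iSC and 53.6 ± 8.35 in AST (log2 change -0.76 ± 0.17, adjusted p = 0.00254, and 0.0781 under quantile normalization). The desaturase gene Fads2 was at 165 ± 29.7 FPKM in A-iSC and 138 ± 4.34 in AST (adjusted p = 0.127, and 0.0101 under total read scaling). The sterol enzyme Cyp51 fell by 1.07 ± 0.07 on the log2 scale in A-iSC against AST (adjusted p = 1.8e-07).

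Peripheral myelin made by Schwann cells uses other proteins, and 5 of 10 genes listed for it passed the filter on low values. Of these 5, 2 rose and 3 fell in A-iSC against AST and in P56-NSC against AST, and 1 rose and 3 fell in P0-NSC against AST. In A-iSC 2 were higher and 2 lower than in P56-NSC and 2 were higher and 3 lower than in P0-NSC, and P56-NSC had 2 higher and 2 lower than P0-NSC. Pmp22, a membrane protein of peripheral myelin that fibroblasts make too, was at 50.1 ± 5.66 FPKM in A-iSC and 68.5 ± 5.70 in AST (adjusted p = 0.00328), a difference that total read scaling did not call (adjusted p = 0.0979). Prx and the receptor gene Ngfr were lower in A-iSC, at 0.693 ± 0.228 and 1.04 ± 0.418 FPKM, against 2.79 ± 0.324 and 6.05 ± 0.930 FPKM in AST. Cdh19 and Drp2 were higher in A-iSC, at 2.21 ± 0.445 and 1.79 ± 0.293 FPKM, against 0.285 ± 0.121 and 0.778 ± 0.0643 FPKM in AST.

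The genes most like the 9 members were sought by the Pearson correlation of log2(FPKM + 1) with the members' mean standardised level. Over the 12 libraries, among 7237 genes of at least 10 FPKM in a group, the closest were the neuregulin receptor gene Erbb3 (r = 0.998), the microtubule-associated Map7, Tmem88b, the chemokine gene Cxcl5, Pex5l and the choline phosphodiesterase gene Enpp6 (r = 0.997). These points share the wide gap between P56-NSC and the other groups, which any gene high in P56-NSC alone would follow. Over the 9 libraries outside P56-NSC other genes were among the closest: Tcp11l2 (r = 0.997), Nat8f4, Adap2, the transporter gene Slco2b1 and the sodium pump subunit gene Atp1b2 (r = 0.992).

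Outside P56-NSC the members followed one another unevenly. Set against the mean of the other 8 over these 9 libraries, Mobp (r = 0.982), Mag (0.941), Mbp (0.941) and Opalin (0.898) were closest to the rest, followed by Mal (0.794), Cnp (0.741) and Plekhb1 (0.527). Ermn (0.296) and Mog (-0.293) were farthest. The values describe 3 groups of 3 libraries, and those of Mobp and Opalin rest on at most 9 reads per library.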

How the data were processed

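Total RNA of 12 libraries (3 µg per sample, per the labels' protocols) was sequenced from a kit whose reads carry no strand. The authors deposited a single table with FPKM values for each gene and library. The submitters' processing notes list Bowtie 0.12.2 with builds mm8 and mm9, yet 99.5% of the 55154 gene identifiers in common with GENCODE M21 have its GRCm38 coordinates. No counting tool is named in the sources used here.

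Multiplying FPKM by gene length returned whole reads, to within 0.01, for 100% of values. Library totals implied by the deposited FPKM are 0.744 to 1.22 times the summed reads, so the authors' values were also scaled between libraries. The 441 entries with no gene name held 0.0957% to 0.156% of reads and were left out. Replicate libraries differed by more than counting noise in every pair, with chi-square 2.51 to 95.1 per degree of freedom.

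The limma package (3.58.1, R 4.3.3, and data.table, version 1.17.8) was run on log2(FPKM + 1), with a spread that follows the mean, for the 15747 genes that reached 1 FPKM in 3 or more libraries. One model of group means without covariates held all 12 libraries and gave 6 comparisons. Adjusted p is Benjamini-Hochberg over all genes tested, called below 0.05, with n = 3 per group throughout. Folds are ratios of mean FPKM. Where a group had 1 to 3 reads in all, the fold is instead the ratio of reads pooled over libraries, scaled to the library totals implied by the FPKM. Overlap of libraries between groups was not counted over all genes. Floors are 3 reads per library, and counting intervals at 1 to 3 reads are exact conditional binomial (95%). The fit was tested on simulated data built from genes well read in AST. That test does not cover Mobp, Mag, Mog, Ermn and Opalin. Python 3.11.15 (pandas 2.3.3, scipy 1.17.1, numpy 2.4.6, matplotlib 3.10.9) made tables and figures.

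Members and lists were chosen with earlier results of these data known. The lists were other myelin genes, lineage transcription factors, precursor genes, Schwann cell genes, sterol and lipid enzymes, and markers of neurons, astrocytes, microglia, endothelium, red blood cells, progenitors, and fibroblasts and mural cells. Named from each of the first 5 are the 3 genes of highest mean FPKM and at most 3 called genes of largest change in A-iSC against AST. Also named are the 6 genes most like the members in pattern, predicted genes passed over. Some genes that these rules name are not reported here. Alternatives were the pseudocount, the filter, total read scaling, quantile normalization, voom, fits on the 2 groups compared, a replicate block, and each library left out.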

Additional observations from a re-analysis of the deposited data

How the results depend on the processing

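Of 54 member results (9 genes in 6 comparisons), 43 kept their direction and their side of the threshold under every alternative tried, up to 22 for each, and 11 did not. The 43 include the calls of Mobp, Mag, Ermn and Opalin in each comparison with P56-NSC, which had to follow from the filter. The number of members called in A-iSC against AST was 5, and it was 9 with a pseudocount of 0.1 and 9 with voom on the recovered reads. Over all genes tested the numbers called were 9279, 9560 and 9361. Leaving out each library in turn gave 5 members in A-iSC against AST, 9 in each comparison with P56-NSC, 6 in A-iSC against P0-NSC and 4 to 6 in P0-NSC against AST. Quantile normalization turned the direction of 3 changes that were not called: Mobp in P0-NSC against AST (log2 change -0.0085), Mag in P0-NSC against AST (-0.0793) and Ermn in A-iSC against P0-NSC (0.0366). It also ended the call of Ermn in P0-NSC against AST (adjusted p = 0.283) and called Mal lower there (log2 change -0.53, adjusted p = 0.00292). The cause was not tested. Of 26 other named genes, 16 kept their result in A-iSC against AST and 10 did not. Their uncalled changes turned for Myrf, to 0.00544 with a pseudocount of 0.1, 0.0394 with total read scaling and 0.25 with voom, and -0.0386 to 0.0565 with a library left out. They turned for Nkx6-2, to 0.147 with total read scaling, 0.12 with quantile normalization and 0.144 with voom, to 0.27 without AST 2 and A-iSC 3 together (called), and -0.170 to 0.128 with a library left out. Not all same-numbered libraries deviated together: in A-iSC against AST the correlations were -0.395, 0.342 and 0.442 for numbers 1, 2 and 3, and no comparison had all 3 over 0.1, so the numbers are not taken as pairs. A fit with the replicate number as a block called 5, 9, 5, 9, 6 and 9 members in the 6 comparisons, the counts of the fit without it, and 9149 genes in A-iSC against AST, against 9279 without it. Scaling to equal total reads put the median log2 change of all genes at 0.12 in A-iSC against AST, -0.24 in P56-NSC against AST and 0.16 in P0-NSC against AST, where the deposited scaling gave 0.00, -0.00 and -0.04. It changed no member call. The fits without P56-NSC and without AST 2 and A-iSC 3 together were added after seeing the data. Outside P56-NSC, Mobp, Ermn and Opalin had 0 to 19 reads in each library, as did Mog in A-iSC and AST, so their values there carry a wide counting error.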
